A study of Mus musculus with 24 samples.

Results

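The pooled comparison set 9 mammary glands of BALB/c mice exposed to low dose ionizing radiation (LDIR) against 9 glands of sham mice, with the week of collection as a block. These 18 arrays were all the BALB/c arrays among the 24 of the study, and the other 6 came from SPRET/EiJ mice. Female mice of 8 to 9 weeks of age received 10 cGy of X-rays to the whole body from a 320 kVp machine or were sham treated, and glands were collected 2, 4 or 8 weeks later, with 3 LDIR and 3 sham arrays at each time. No transgene or deletion was involved, and RNA was hybridised in 1 colour to arrays that carry 39430 probes for coding RNAs and 16251 probes for long noncoding RNAs (lncRNAs). The comparison asks which RNAs stood at a different level after LDIR whatever the time since exposure, and how small a difference 9 arrays against 9 could have found.

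Ionizing radiation breaks DNA, and cells answer through the kinase ATM and the transcription factor p53, which switches on Cdkn1a, Mdm2 and other targets within hours. The mammary gland is a branched epithelium of luminal and basal cells inside a fat pad, with blood vessels, immune cells and sometimes a lymph node. In its luminal cells, oestrogen and progesterone act through secreted messengers such as Areg, Wnt4 and Tnfsf11 (RANKL), which tell neighbouring cells to divide. A gland is a mixture, so fewer cells of a type and less RNA per cell cannot be told apart in any value given here.

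Each level is the log2 intensity of a probe minus the 75th percentile of its array, so 0 marks the brightness that 25% of the array's probes exceed. Each array detected 65.7% to 72.7% of the probes, in the sense of the scanner software's flag for a spot well above background, and no spot was saturated. All 16 luminal and all 16 white adipocyte markers were well above background on all 18 arrays, as the label of mammary gland requires. The arrays 8-week sham A and 8-week LDIR B stood apart. Summed T lymphocyte markers reached log2 levels of 7.73 and 8.19 on these 2 arrays and 3.87 to 4.70 on the other 16, and B lymphocyte markers 7.37 and 7.57 against 3.14 to 3.73. Array 8-week sham A also had the highest negative control intensity. The arrays lay on 3 slides, and slide and treatment were not balanced: at 4 weeks, sham A and B lay on slide 1 while sham C and the 3 LDIR arrays lay on slide 2, and at 8 weeks, LDIR B and C lay on slide 3.

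No probe differed between LDIR and sham at an adjusted p under 0.05 by limma over 55681 probes (0 called, 0%), and the smallest adjusted p was 0.985. At an unadjusted p under 0.05 there were 1857 probes, 3.34% of those tested, of which 710 were higher (1.28%) and 1147 lower (2.06%) after LDIR. Adding the study's threshold of a 1.5-fold change left 647 probes (1.16%), 145 higher (0.26%) and 502 lower (0.902%). They were 387 coding probes, of which 83 were higher, and 260 lncRNA probes, of which 62 were higher. Detection on every array of the higher treatment held for 99 of the 387 coding and 20 of the 260 lncRNA probes, while 64 and 73 were detected nowhere among the 18 arrays. Since no probe passed the adjusted test, genes are described here as higher or lower with their unadjusted p.

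The balance of higher and lower probes turned without 1 array. Without 8-week sham A, 563 probes were higher and 348 lower, and 375 of the 911 were among the 647, whereas without 8-week LDIR B 234 were higher and 432 lower. Leaving out both that array and 8-week LDIR B, an alternative chosen after seeing the data, gave 665 higher and 304 lower, with 4378 probes at an unadjusted p under 0.05 and a smallest adjusted p of 0.609. Leaving out all the 8-week arrays gave 1064 higher and 381 lower. Quantile normalization gave 334 higher and 353 lower. With normexp, a model-based background correction, 68 probes passed, 17 higher and 51 lower, and 61 of them were among the 647. It added an offset of 50 to the intensities, which draws the log2 changes of dim probes toward 0. With slide as a further block, 768 probes passed, of which 240 were among the 647. The median change of all probes was -0.04 on the log2 scale.

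**Figure D1:**
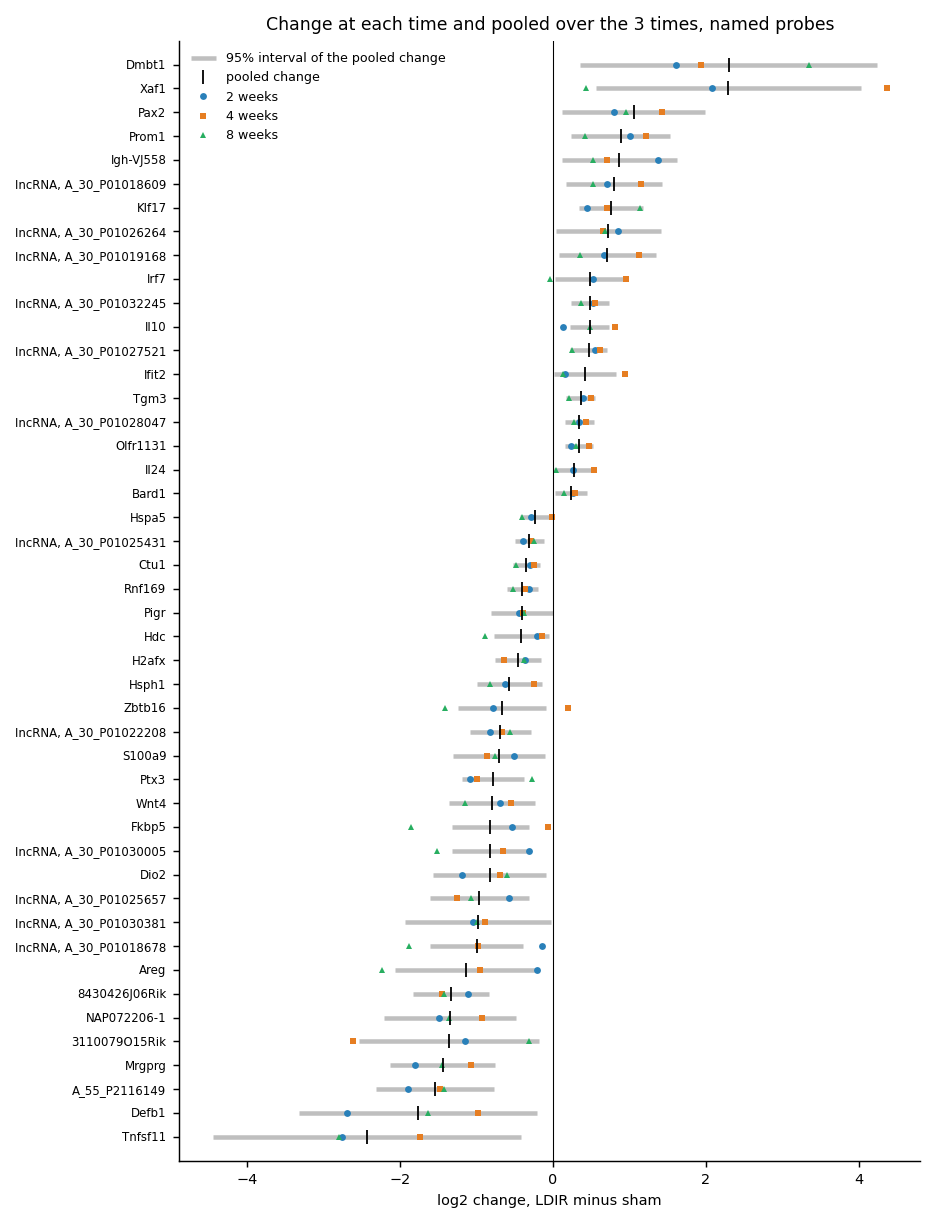
Log2 change after LDIR against sham for the named probes reported, leaving out the fixed p53 genes, Pgr and Prl. Shown are the pooled value with its 95% interval and the separate values at 2, 4 and 8 weeks. The pooled value of 8430426J06Rik is -1.33 and that of Dmbt1 is 2.30, with a much wider interval for Dmbt1.

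A change in the same direction at 2, 4 and 8 weeks was seen for 15816 probes (28.4%), 4897 higher (8.79%) and 10919 lower (19.6%). Among the 647 probes past the thresholds, 568 (1.02% of all tested) kept one direction at all 3 times, 125 higher (0.224%) and 443 lower (0.796%). At least a 1.5-fold change at each of the 3 times was found for 157 probes (0.282%), 25 higher (0.0449%) and 132 lower (0.237%). The change itself differed between the times for 0 probes at an adjusted p under 0.05 (0%, limma treatment-by-week terms, smallest adjusted p 0.0984) and for 2082 at an unadjusted p under 0.05 (3.74%).

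The coding RNA with the smallest p was lower after LDIR at every time. This RIKEN transcript, 8430426J06Rik (chr15:81073092-81073151, mm9), has no function that can be given here. Its log2 level ran from -2.28 to -0.44 on the LDIR arrays, with a median of -1.39, and from -0.86 to 0.99 on the sham arrays, with a median of -0.09. Within weeks, all 3 LDIR arrays lay below all 3 sham arrays at 4 and 8 weeks, and 2 of 3 did so at 2 weeks. The pooled log2 change was -1.33 (SE 0.23, 95% interval -1.83 to -0.84, limma p 3.16e-05), with -1.12, -1.45 and -1.42 at 2, 4 and 8 weeks. With slide as a block it was -1.38.

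Mrgprg, a receptor of the Mas-related family found on sensory neurons and other cells, was also lower. Its level ran from -2.01 to -0.24 after LDIR (median -1.0) and from -1.16 to 1.78 in sham (median 0.45). The pooled log2 change was -1.44 (SE 0.32, limma p 0.00037). Ptx3, a secreted pentraxin of innate immunity, had levels of -3.75 to -2.23 after LDIR (median -3.10) and -2.71 to -1.45 in sham (median -2.28). Its 3 LDIR arrays lay below all sham arrays at 2 and at 4 weeks, but 1 of 3 did at 8 weeks, where the change was -0.27 against -1.09 and -0.99 before. The pooled change of Ptx3 was -0.78 (SE 0.19, limma p 0.000816).

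Rnf169, a ubiquitin ligase that binds modified chromatin at DNA breaks, was lower with complete separation at every time. Its level ran from 1.03 to 1.68 after LDIR (median 1.28) and from 1.30 to 2.19 in sham (median 1.76). The ranges overlap across weeks but not within any week. The pooled log2 change was -0.40 (SE 0.10, limma p 0.000674), with -0.32, -0.36 and -0.52 at the 3 times. Ctu1, a subunit of the enzyme that thiolates transfer RNAs, separated in the same way, with levels of -1.18 to -0.96 after LDIR and -1.0 to -0.45 in sham. Its pooled change was -0.35 (SE 0.08, limma p 0.000566). Both changes were below 1.5-fold, so neither gene passed the thresholds of the study.

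H2afx, the histone variant that is phosphorylated around DNA breaks, was lower as well. Its level ran from 0.89 to 2.28 after LDIR (median 1.17) and from 1.31 to 2.55 in sham (median 1.64). All 3 LDIR arrays were below all sham arrays at 4 weeks and 2 of 3 at the other times. The pooled log2 change was -0.46 (SE 0.14, limma p 0.00498), and -0.53 with slide as a block.

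Among the largest lower changes were Defb1 and 3110079O15Rik, both with wide intervals. Defb1, an antimicrobial defensin of epithelia, changed by -1.77 (95% interval -3.32 to -0.21, limma p 0.0284), with levels of -5.23 to -0.27 after LDIR and -3.66 to 2.33 in sham. 3110079O15Rik changed by -1.36 (limma p 0.0261), and by -1.21 with p 0.114 when slide was a block.

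**Figure D2:**
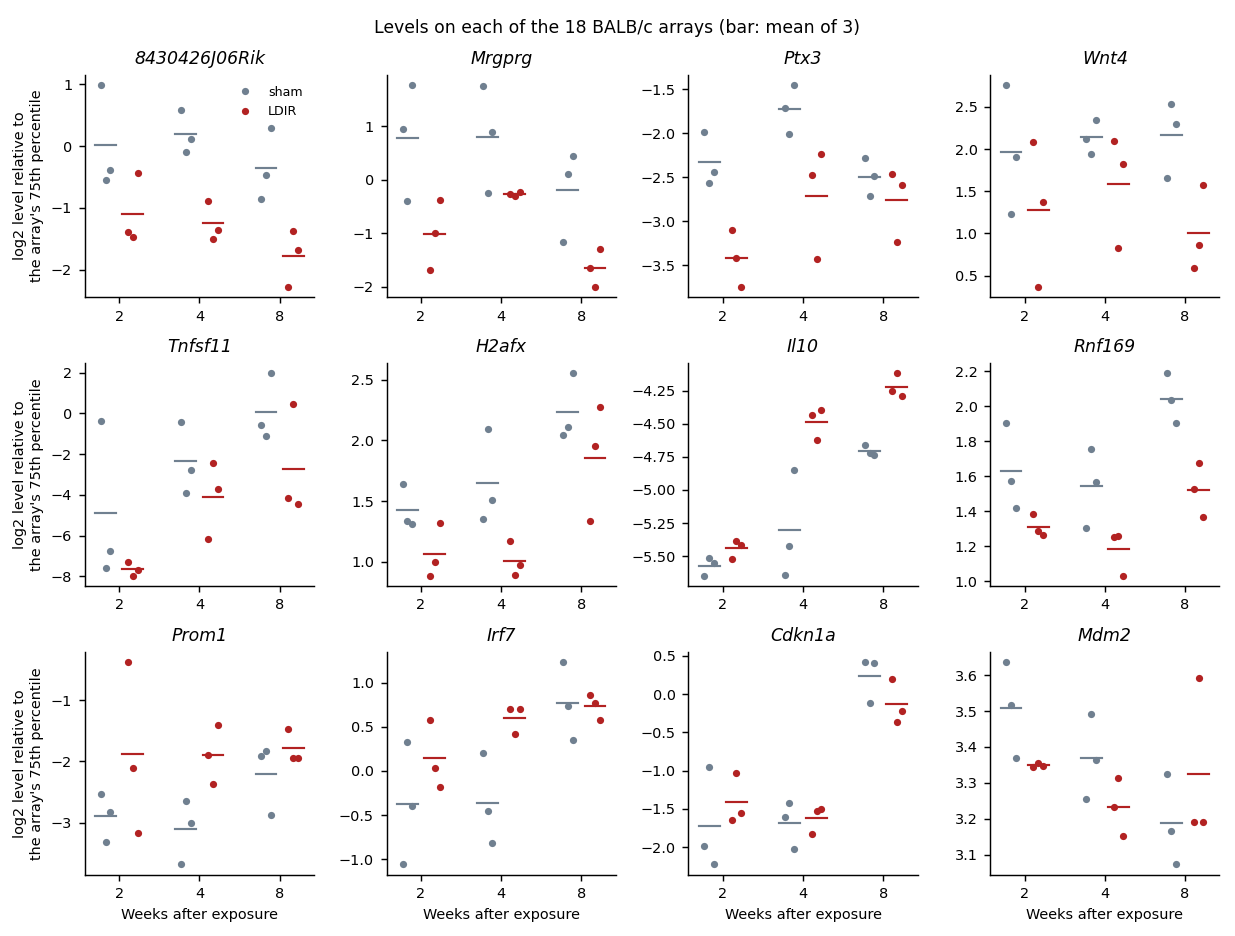
Log2 level of 12 genes on each of the 18 arrays, by week and treatment, with each point an array and each bar the mean of 3. 8430426J06Rik lies lower on the LDIR arrays at every time, with a pooled change of -1.33, while the pooled change of Mdm2 is -0.05.

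The higher coding RNAs showed smaller changes where the p was small. Tgm3, a transglutaminase of cornified epithelium, had levels of 1.58 to 2.11 after LDIR (median 1.90) and 1.35 to 1.71 in sham (median 1.53). Its pooled log2 change was 0.37 (SE 0.09, limma p 0.000887), but the other Tgm3 probe gave -0.06. Klf17, a transcription factor of the Krüppel-like family, changed by 0.76 (limma p 0.00143), and by 0.48 with slide as a block.

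Il10, the cytokine that restrains inflammation, changed by 0.48 (SE 0.12, limma p 0.000945). Its level was between -5.65 and -5.39 on all 8 arrays of slide 1, which held the 6 arrays of 2 weeks and 2 sham arrays of 4 weeks, and between -4.85 and -4.12 on the other 10. At 4 weeks the sham arrays A and B on slide 1 were at -5.64 and -5.42, sham C on slide 2 was at -4.85, and the 3 LDIR arrays on slide 2 were at -4.62 to -4.40. At 8 weeks the LDIR arrays, at -4.29 to -4.12, lay above the sham arrays, at -4.73 to -4.66. The change was 0.41 within slide 2, 0.27 with slide as a block (limma p 0.0142), and 0.036 (limma p 0.616) with normexp, a model-based background correction.

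The largest higher changes rested on few arrays. Xaf1, an interferon-induced partner of the apoptosis inhibitor XIAP, had a median level of -2.89 after LDIR and -3.81 in sham. Array 2-week LDIR A stood at 1.89, 4-week LDIR A at 2.09 and 4-week LDIR C at 2.20, while the other 6 LDIR arrays lay between -3.93 and -2.88 and the sham arrays between -4.62 and -2.85. All 6 SPRET/EiJ arrays, LDIR and sham alike, lay between 1.95 and 3.27 for this probe. The pooled change was 2.30 (95% interval 0.56 to 4.03, limma p 0.0128), and a second, brighter Xaf1 probe gave 0.18.

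Dmbt1, a secreted glycoprotein of mucosal epithelium, changed by 2.30 (95% interval 0.35 to 4.25, limma p 0.0235), with levels of -3.48 to 1.65 after LDIR and -7.95 to -0.52 in sham. It was well above background on 9 of 9 LDIR and 6 of 9 sham arrays, so the size of the change includes sham values at background. Its 3 highest LDIR arrays were the same as for Xaf1. The change was 1.69 with slide as a block, and p was 0.171. Prom1, a membrane glycoprotein of luminal cells, changed by 0.89 (limma p 0.0106), and its brighter probe by 0.55. Summed luminal markers overlapped, at 7.34 to 8.89 after LDIR and 7.43 to 8.85 in sham, and their part in these values was not tested. Pax2 and Igh-VJ558, an immunoglobulin heavy chain segment, changed by 1.06 and 0.87, each with a p above 0.05 when slide was a block. The other Pax2 probe that was well above background on all arrays was dimmer and gave -0.01.

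Complete separation of LDIR from sham within each of the 3 weeks was found for 11 probes (0.0198% of those tested), 5 higher (0.00898%) and 6 lower (0.0108%). Besides Rnf169 and Ctu1, the lower ones were Egln2, a prolyl hydroxylase of the oxygen-sensing pathway (-0.18), the lncRNAs chr19:44653017-44654777_F (-0.31) and chr12:20996314-21091646_F, and the unannotated probe A_55_P2116149 (-1.55). The higher ones were the lectin gene Lman1l (0.35), the olfactory receptor gene Olfr1131 (0.34), the cornified envelope gene Lce1a2 (0.30), and the lncRNAs chr6:90749574-90750492_R (0.35) and chr3:65463150-65463487_F. Probe A_55_P2116149 had no value on 6 of the 18 arrays, where its spots were outliers, so that its separation rests on 1 LDIR against 2 sham arrays at 2 weeks and again at 4 weeks. The probe of chr12:20996314-21091646_F was well above background on 1 of the 18 arrays, and that of chr3:65463150-65463487_F on 7, so no change is given for either. Those of the 11 outside the rule for named genes were chosen after their values were seen.

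Among lncRNAs, named by the interval and strand of the transcript, 4 are shown with the 60 bases of their probe, since the name alone does not say what was measured. The probe sequences come from the deposited array files, are printed 5′ to 3′ and have mm9 positions chr6:90750060-90750119 (minus strand), chr15:51832076-51832135, chr19:44654697-44654756 and chr1:139796208-139796267 (plus strand). No letters are in capitals here.
chr6:90749574-90750492_R: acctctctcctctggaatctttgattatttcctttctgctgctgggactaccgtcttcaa
chr15:51829797-51844247_F: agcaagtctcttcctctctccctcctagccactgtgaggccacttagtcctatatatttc
chr19:44653017-44654777_F: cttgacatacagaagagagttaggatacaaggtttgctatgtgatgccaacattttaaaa
chr1:139795171-139796306_F: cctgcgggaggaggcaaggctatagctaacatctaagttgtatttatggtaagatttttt

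The first 2 of these lncRNAs were higher after LDIR. chr15:51829797-51844247_F had levels of 2.43 to 3.06 after LDIR (median 2.74) and 2.00 to 2.74 in sham (median 2.24), a change of 0.47 (SE 0.11, limma p 0.000788), while its other probe well above background on all arrays gave 0.18. chr6:90749574-90750492_R had levels of -1.37 to -0.87 after LDIR and -1.68 to -1.09 in sham, a change of 0.35 (limma p 0.00138). A further probe of the first locus and both other probes of the second were well above background on 2 to 6 of 9 arrays in each treatment, and no change is given for them.

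The other 2 were lower. chr1:139795171-139796306_F had levels of -4.49 to -2.11 after LDIR (median -2.73) and -3.84 to -1.25 in sham (median -2.26), a change of -0.69 (SE 0.19, limma p 0.00202), and its other probes gave -0.22 and -0.20. chr19:44653017-44654777_F changed by -0.31 (limma p 0.0031), and its other probes by -0.26 and -0.22. For these loci the other probes had the same sign, and they were well above background on at least 7 of 9 arrays in each treatment.

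The larger lncRNA changes were less certain. chr7:112934153-112943178_F, chrX:50400250-50410825_F and chr15:102947390-102971082_F were higher by 0.79, 0.72 and 0.71, each with p above 0.05 when slide was a block. The other probes that were well above background on all 18 arrays gave 0.16 to 0.33 for the chr7 locus and 0.26 for the chrX locus. chr9:121845920-121858120_F, chr17:88225376-88238756_F and chr13:73472571-73483846_F changed by -1.0, -0.98 and -0.97, and with slide as a block the p of the first was 0.0329 and that of the others was 0.111 and 0.0972. The chr9 probe was well above background on 6 of 9 LDIR and 9 of 9 sham arrays, so its change includes LDIR values at background. The other chr9 probes well above background on all 18 arrays gave -0.54, 0.24 and 0.26 (limma p 0.0386, 0.0497 and 0.0453), and the 2 with positive values were the brightest of the locus. Those of the chr13 locus gave -0.0080 to 0.12. chr15:85412264-85549139_F changed by 0.48 (limma p 0.000888) and chr17:15111725-15139800_R by -0.83 (limma p 0.00273), the latter by -0.55 with p 0.0605 when slide was a block. The other probes of the chr15 locus well above background on all 18 arrays gave -0.27 to 0.16, and the brightest gave 0.16 (limma p 0.316). Those of the chr17 locus gave -0.45 and -0.33.

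Probes A_55_P2116149 and NAP072206-1, both among the largest lower changes, turned out to carry a long run of the triplet GAA. Shown are these 2, a further unannotated probe, and the probes that the files annotate as Dcc and Gcm1, with the run in capitals, from the deposited array files and 5′ to 3′. Their mm9 positions, in the same order, are chr7:97951805-97951864 (minus strand), chr9:95434704-95434763 (plus strand), chr17:8097684-8097743 (plus strand), chr7:68417162-68417221 (minus strand) and chr7:123731567-123731626 (minus strand).
A_55_P2116149: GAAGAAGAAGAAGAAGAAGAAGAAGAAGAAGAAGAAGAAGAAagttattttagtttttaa
NAP072206-1: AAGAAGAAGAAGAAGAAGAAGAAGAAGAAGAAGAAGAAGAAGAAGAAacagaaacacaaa
A_55_P2075731: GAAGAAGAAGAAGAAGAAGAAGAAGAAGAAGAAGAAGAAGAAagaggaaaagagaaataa
Dcc: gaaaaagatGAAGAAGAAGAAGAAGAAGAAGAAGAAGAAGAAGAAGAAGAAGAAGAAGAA
Gcm1: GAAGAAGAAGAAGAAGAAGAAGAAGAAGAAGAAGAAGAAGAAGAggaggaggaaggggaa

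The array holds 34 probes with a GAA run of at least 24 bases, a set chosen after its values were seen and so described with no test. All 34 were well above background on all 18 arrays. All 34 had a pooled change below 0, from -1.91 to -0.31 with a median of -0.64. At all 3 times 32 were lower, against 19.6% of all probes. Of the 34, 19 (55.9%) passed the thresholds against 1.16% of all probes. The 24 of them with a value on every array moved almost as a single measurement, with a median pairwise correlation of 0.97 across arrays, so they are not 34 separate measurements.

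The median level of these probes overlapped between treatments at each time. It was 4.07 to 4.84 after LDIR and 4.38 to 5.84 in sham at 2 weeks, 4.84 to 5.60 and 5.10 to 5.93 at 4 weeks, and 2.63 to 3.86 and 3.37 to 4.2 at 8 weeks. At an unadjusted limma p under 0.05 there were 24 of the 34 probes, and 12 with slide as a block. The median change was -0.59 with slide as a block, -0.29 within slide 2, and -0.53 without the 2 arrays high in lymphocyte markers. In SPRET/EiJ mice it was -0.14, with 28 of the 34 lower and 0 at an unadjusted p under 0.05, and the difference between strains was not tested. The brightest Pigr probe, which carries a run, changed by -0.41, and the other Pigr probe was well above background on only 4 of 9 arrays in each treatment. No value of a probe with a run is given here as that of its annotated gene.

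**Figure D3:**
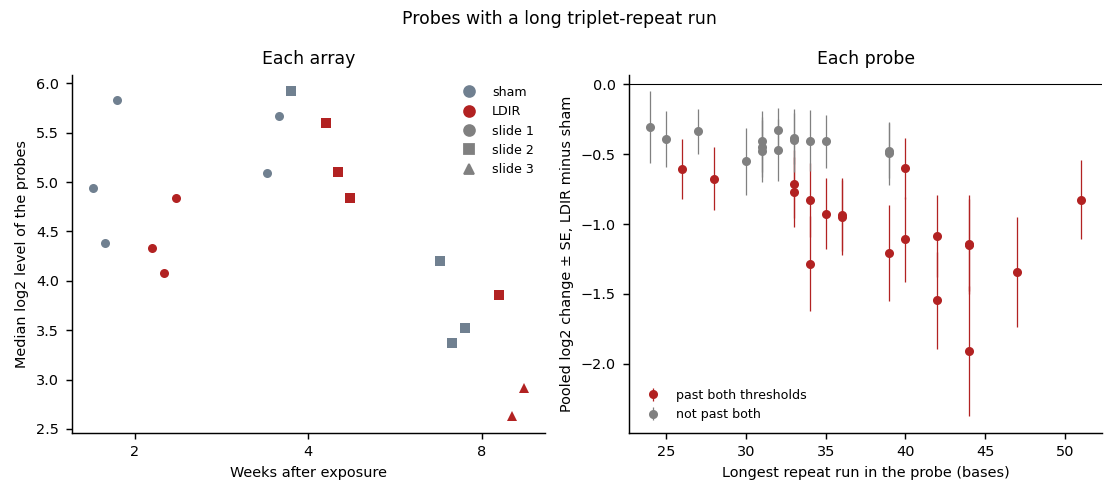
Left, the median log2 level of the GAA-run probes on each array by week, treatment (colour) and slide (shape), and right, the pooled log2 change of each probe with its SE against the length of its run in bases. All 34 probes lie below 0, from -1.91 to -0.31, and at each week the LDIR and sham arrays overlap.

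Gene groups were described by counts over 24784 genes, each given by its brightest probe, of which 1.11% were higher and 2.07% lower at an unadjusted p under 0.05, and 8.59% were higher and 20% lower at all 3 times. The lists were chosen with earlier results of these data known and have no test of their own. The median change of all these genes was -0.05.

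Genes of the mammary hormone response had a median change below 0 at each time. Of 15 measured, 0 were higher and 3 lower at an unadjusted p under 0.05, 5 were lower at all 3 times, and the median change was -0.30, with -0.34, -0.38 and -0.41 at 2, 4 and 8 weeks. The 3 lower genes were Wnt4, Areg and Tnfsf11. Before its functional analysis, the study set aside genes that vary over the oestrous cycle. Oestrous stage was not used here, and its part in these values and in those of the cell cycle genes was not tested. Without 8-week sham A, 6 of the 15 were lower, with a median of -0.46, and with slide as a block 2 were, with a median of -0.33. Over all 24784 genes, 790 and 542 were lower in these fits.

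Wnt4 had levels of 0.37 to 2.10 after LDIR (median 1.37) and 1.24 to 2.76 in sham (median 2.12). At 8 weeks the LDIR arrays were all below the sham arrays. The pooled log2 change was -0.80 (SE 0.26, limma p 0.00797), and -0.58 by the other probe. Areg, a ligand of the EGF receptor, had levels of -0.34 to 5.07 after LDIR and 1.02 to 5.29 in sham, and its change was -1.13 (SE 0.44, limma p 0.0201), of which -0.21 was seen at 2 weeks and -2.23 at 8 weeks. With slide as a block Areg had p 0.0606.

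Tnfsf11, named after its values were seen, ran from -7.96 to 0.45 after LDIR (median -4.43) and from -7.57 to 1.96 in sham (median -1.12). It was well above background on 5 of 9 LDIR and 7 of 9 sham arrays, so its change of -2.43 (95% interval -4.45 to -0.42, limma p 0.021) includes values at background. The values of the receptors were closer to 0. Pgr, the progesterone receptor, changed by -0.21 (95% interval -0.83 to 0.42) and Esr1, the oestrogen receptor, by -0.32 (limma p 0.17), and neither passed the threshold. The change of Pgr was -0.24, 0.27 and -0.65 at the 3 times, and at 8 weeks all 3 LDIR arrays lay below all sham arrays. A second Pgr probe gave 0.35, 0.50 and -1.02 at these times, pooled -0.05, and the remaining probe gave 0.32, 0.77 and -1.04, pooled 0.02. The milk protein genes had a median change of 0.18, with 0 of 13 at an unadjusted p under 0.05.

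Heat shock proteins, the chaperones that refold damaged proteins, had a median change below 0 at each time. Of 17 measured, 3 were lower and 0 higher at an unadjusted p under 0.05, and 9 were lower at all 3 times. The median change was -0.17, with -0.19, -0.06 and -0.19 at 2, 4 and 8 weeks. Hsph1 had levels of 0.71 to 2.07 after LDIR (median 1.18) and 1.32 to 2.51 in sham (median 1.86), a change of -0.57 (SE 0.20, limma p 0.0111), and its other probe gave -0.59. Hspa5, the chaperone of the endoplasmic reticulum, changed by -0.24 (limma p 0.0258) and Hsp90aa1 by -0.25 (limma p 0.0408). Without 8-week sham A, 8 of the 17 were lower, but with slide as a block 1 was, with a median of -0.07. Over all 24784 genes, 790 and 542 were lower in these fits.

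Genes induced by glucocorticoids had a median change of -0.18, with -0.23, -0.03 and -0.22 at 2, 4 and 8 weeks. The difference between times was not tested for the list. Of 14, 1 was higher and 3 lower. Fkbp5, a co-chaperone of the glucocorticoid receptor, changed by -0.82 (SE 0.24, limma p 0.0031), which was -0.53, -0.07 and -1.86 at the 3 times, and its change differed between times at an unadjusted p of 0.000842. At 8 weeks sham A, B and C stood at 4.10, 3.91 and 4.10, and LDIR A, B and C at 1.78, 2.76 and 2.01. Zbtb16, a transcription factor of the same response, changed by -0.67 (limma p 0.0252), with 0.19 at 4 weeks and -1.42 at 8 weeks.

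Type I interferon-stimulated genes had their highest median change at 4 weeks. Of 24 measured, 2 were higher and 0 lower at an unadjusted p under 0.05, 5 were higher at all 3 times, and the median change was 0.28, with 0.12, 0.87 and 0.03 at 2, 4 and 8 weeks. Irf7, the factor that amplifies interferon production, had levels of -0.18 to 0.86 after LDIR (median 0.58) and -1.06 to 1.23 in sham (median 0.20). Its change was 0.48 (limma p 0.0374), which was 0.52, 0.96 and -0.04 at the 3 times. Ifit2, an inhibitor of viral translation, changed by 0.41 (limma p 0.0467), which was 0.16, 0.94 and 0.14 at the 3 times. It had p 0.0864 when slide was a block. Over the 18 fits with an array left out, the p stayed under 0.05 in 9 for Irf7 and in 4 for Ifit2. Without 8-week sham A, 6 of the 24 were higher, with a median of 0.39, and without both arrays high in lymphocyte markers 4 were, with a median of 0.41. With slide as a block 1 was higher, with a median of 0.27. Over all 24784 genes, 684, 886 and 254 were higher in these fits, in the same order. Macrophage markers also had their highest median at 4 weeks, 0.79, against 0.18 pooled, and their part in the interferon values was not tested.

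Cell cycle genes had 0 of 28 at an unadjusted p under 0.05, with 11 lower at all 3 times and a median change of -0.36. The median was -0.32, 0.03 and -0.69 at the 3 times. With slide as a block 15 of the 28 were lower, with a median of -0.77, against 542 of all 24784 genes. Mki67, a marker of dividing cells, changed by -0.53 (limma p 0.0877).

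The p53 targets had a median change near 0. Of 25 measured, 0 were higher and 0 lower at an unadjusted p under 0.05, 1 was higher and 5 were lower at all 3 times, and the median change was -0.07. Cdkn1a, the cell cycle inhibitor p21, had levels of -1.83 to 0.19 after LDIR (median -1.50) and -2.22 to 0.42 in sham (median -1.43), and its 95% interval was -0.38 to 0.38. Mdm2, the ubiquitin ligase that degrades p53, had levels of 3.15 to 3.59 after LDIR and 3.07 to 3.64 in sham, with an interval of -0.24 to 0.13. At 2 weeks its 3 LDIR arrays lay below the 3 sham arrays, by -0.16, and at 8 weeks the change was 0.14. The interval lay below a 1.5-fold rise for 23 of the 25 targets and within 2-fold either way for all 25, and within 1.5-fold either way for 15. The 25 include Eda2r, which was well above background on 0 LDIR and 0 sham arrays. Its interval is that of a signal at background and sets no limit on a change of that gene. Of 12 genes of non-homologous end joining, which rejoins broken DNA ends, 0 were higher or lower and all 12 intervals lay within 1.5-fold.

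Break sensing and homologous recombination had 1 of 21 genes higher and 1 lower. The lower one was H2afx. Bard1, the partner of Brca1, changed by 0.23 (limma p 0.0321), and by 0.16 with p 0.217 when slide was a block, while its other probe well above background on all arrays gave -0.21.

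Lymphocyte markers changed sign with slide as a block. At an unadjusted p under 0.05 there were 0 of 18 T lymphocyte and 0 of 13 B lymphocyte markers, with 7 and 6 higher at all 3 times. Their median changes were 0.10 and 0.19. Without 8-week sham A the medians were 0.61 and 0.60, and with slide as a block they were -0.29 and -0.24. Without both arrays high in these markers the medians were 0.14 and 0.19, and 2 of 18 T and 5 of 13 B lymphocyte markers were higher while 1 T lymphocyte marker was lower. Over all 24784 genes, 886 were higher and 999 lower in that fit.

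Other lists had few members past the unadjusted threshold. Dio2, which activates thyroid hormone in brown fat, changed by -0.83 (limma p 0.0294), the only one of 14 brown and beige fat genes. Il24, a cytokine, changed by 0.28 (limma p 0.0386), Hdc, the enzyme that makes histamine in mast cells, by -0.41 (limma p 0.0282) and S100a9, a neutrophil protein, by -0.71 (limma p 0.0231). Il24 and Il10 were the only 2 of 29 interleukin and receptor genes, whose median was -0.02. Hdc was the only one of 11 mast cell genes, whose median was -0.05, with 0.38 at 4 weeks. S100a9 and the Pigr probe with a run were the only 2 of 17 acute-phase and mucosal defence genes, whose median was -0.05. With slide as a block the p was 0.0912 for Dio2, 0.107 for Hdc and 0.236 for S100a9, whose change was -0.43. Without the 2 arrays high in lymphocyte markers Hdc had p 0.0562 and S100a9 p 0.0729. In the cornified epidermis list Dsc1 and Krt1 were well above background on 0 and 1 of the 18 arrays, so no fold is given for them. All 25 ribosomal protein genes had intervals within 1.5-fold, and 11 were lower at all 3 times. At an unadjusted p under 0.05, 0 of the 25 passed, but 10 were lower with slide as a block, with a median of -0.23, and 8 with array weights. Over all 24784 genes, 542 and 1157 were lower in these fits.

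**Figure D4:**
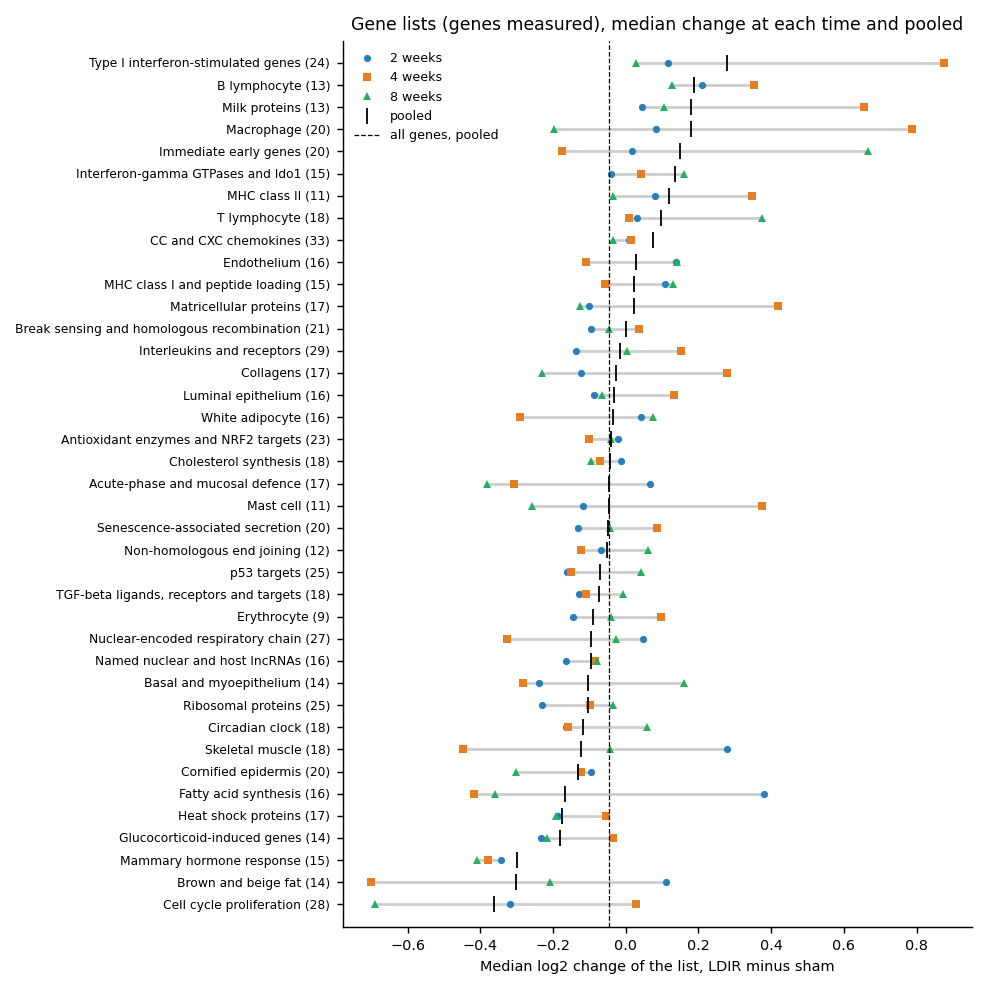
Median log2 change of each gene list, pooled (black bar) and at 2, 4 and 8 weeks, with the number of genes measured in brackets. The mammary hormone response lies at -0.30 and the type I interferon-stimulated genes at 0.28, against -0.05 for all genes.

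The size of change that 9 against 9 could detect was computed from the residual spread of each probe at 80% power. At an unadjusted p of 0.05 it was a log2 change of 0.59 (1.51-fold) for the median probe, and 0.31 to 1.26 from the 10th to the 90th percentile. For the 31981 probes well above background on all 18 arrays it was 0.43 (1.34-fold), for coding probes 0.55 and for lncRNA probes 0.71. At 0.05 divided by the number of probes it was 1.77 (3.41-fold) for the median probe and 1.28 (2.42-fold) for probes well above background. A 2-fold change could be detected at the unadjusted level for 78.9% of probes and at the strict level for 15.0%. A 1.5-fold change, the threshold of the study, could be detected at the unadjusted level for 49.4% of probes. With normexp the median probe needed 0.29 at the unadjusted and 0.82 at the strict level. The shares for a 2-fold change were then 98.8% and 72.2%, and that for a 1.5-fold change was 93.6%. The offset of normexp draws the changes of dim probes toward 0 as well as their spread, so these shares do not show more power. For probes well above background on none of the 18 arrays, the shares at the unadjusted level were 100% for 2-fold and for 1.5-fold. In the main fit they were 77.4% and 26.1%.

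The separate weeks, with 3 arrays against 3, could detect less. At an unadjusted p of 0.05 the median probe needed a log2 change of 0.72 at 2 weeks, 0.80 at 4 weeks and 1.38 at 8 weeks, when the arrays 8-week sham A and 8-week LDIR B were in the comparison. The 95% interval of the pooled change lay within 2-fold either way for 80.01% of probes and within 1.5-fold for 52.1%. Among probes well above background on all 18 arrays these shares were 96.3% and 78.8%.

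**Figure D5:**
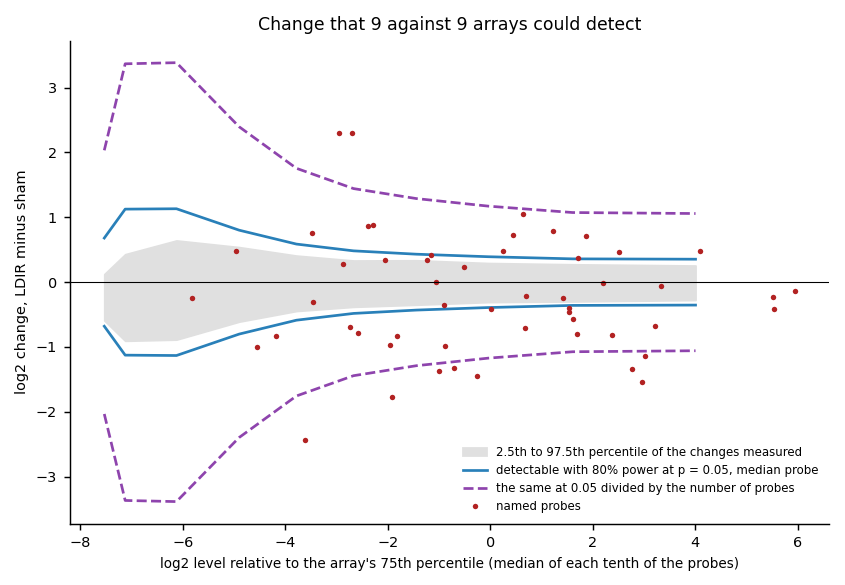
Log2 change that 9 against 9 arrays could detect at 80% power, as the median in each decile of the probes by log2 level, at an unadjusted p of 0.05 (solid) and at 0.05 divided by the number of probes (dashed), with the middle 95% of measured changes in grey and the probes reported as points. The detectable change at the unadjusted level is 1.13 in the dim second decile and 0.35 in the brightest decile.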

How the data were processed

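RNA of mammary glands was hybridised in 1 colour (Cy3) to Agilent 8x60K arrays, 1 array per sample. Per the file headers, the deposited intensity values are Agilent Feature Extraction signals, background-subtracted and detrended within each array, with flags per spot. The authors also deposited log2 values normalized to the 75th percentile and centred on each probe, a centring seen in the values, and these served as an alternative. Here, control spots and outlier spots were left out, spots of a probe were averaged, and log2 intensity minus the 75th percentile of the array was fitted in limma 3.58.1 (R 4.3.3) with week as a block and treatment as the term tested, with Benjamini-Hochberg adjustment over 55681 probes. The deposited flag for a signal well above background was used to describe detection. The 18 arrays were grouped by their labels. Nothing in the labels ties arrays to litters, so p-values measure the spread between these arrays, and the number of arrays limits the precision.

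Named genes were, among probes detected on each of the 9 arrays of the higher treatment and of one direction at all 3 times, the 5 coding and 3 lncRNA probes in each direction with the smallest p and as many with the largest change past the thresholds (p under 0.05 and over 1.5-fold), up to 2 members of each of 39 gene lists, and fixed p53 and hormone genes. One named gene is not reported here. Of 717 list entries 709 were measured. Members and lists were chosen with earlier results of these data known. The fit was tested on simulated data. Alternatives were background correction by normexp, other scalings, filters, blocks and array weights, and leaving out arrays or weeks. Slide as a block and leaving out 8-week sham A for gene lists and repeat probes, and leaving out both arrays high in lymphocyte markers, were chosen after seeing the data.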

Additional observations from a re-analysis of the deposited data

Results flagged for a closer look

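Among 112 groups of up to 9 arrays tested, one for each named probe and treatment, 5 had an array far from the others, and chance flags about 1 in 20 groups. Phlda3, a p53 target, stood at 4.37 on 8-week LDIR B against 5.56 to 6.58 on the other LDIR arrays, and at 4.31 on 8-week sham A against 5.86 to 6.6 on the other sham arrays. These are the 2 arrays high in lymphocyte markers. Mdm2 stood at 3.59 on 8-week LDIR B against 3.15 to 3.35 on the other LDIR arrays. Klf17 stood at -1.75 on 8-week LDIR B against -3.73 to -2.80, and at -3.26 on 4-week sham C against -4.17 to -3.82 on the other sham arrays.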

How the results depend on the processing

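No alternative gave a probe at an adjusted p under 0.05, and the smallest adjusted p was 0.481, with array weights. The counts of coding probes, lncRNA probes and probes of one direction past the thresholds, 387, 260 and 568, were 57, 11 and 63 with normexp, 150, 60 and 188 with only probes well above background on at least 9 arrays, and 906, 539 and 1429 without the 8-week arrays, the last of one direction at the 2 times that remained. Array weights gave 645 coding and 392 lncRNA probes, the methods' t-test 219 coding probes and 355 of one direction, with 1374 probes at p under 0.05 and 0 after Benjamini-Hochberg, and leaving out the 2 arrays high in lymphocyte markers 394 lncRNA probes. Leaving out each array in turn gave 333 to 586 coding (586 without 8-week sham A), 215 to 397 lncRNA (397 without 8-week sham C) and 479 to 826 probes of one direction. The number whose change differed between times at an adjusted p under 0.05 was 0, but 6 with slide as a block, 1 with array weights and 0 to 17 over the arrays left out (17 without 8-week sham B, 14 without 8-week sham C, 2 without 2-week sham A). With normexp, whose offset draws changes of dim probes toward 0, the detectable change was 0.29 and 0.82 in place of 0.59 and 1.77. The replicate letters did not pair the samples, with correlations of same-letter deviations from -0.43 to 0.43, and the replicate block gave 675 probes past the thresholds against 647. Of 949 values of named probes under other settings, 820 kept direction and side of the threshold, 117 lost p under 0.05 and 12 changed sign, and of 1008 values with an array left out 868 kept both, 124 lost p under 0.05 and 16 changed sign. Sign changes were Krt1 with normexp (-0.0031), Cdkn1a with normexp (-0.042), quantile normalization (-0.014), without the 2-week (-0.15) or 4-week arrays (-0.028) and from -0.091 to 0.090 over arrays left out, Ccng1 with quantile normalization (0.020), slide (0.13), array weights (0.027), without the 4-week arrays (0.11) and from -0.076 to 0.058 over arrays left out, Phlda3 with slide (0.081) and from -0.30 to 0.00070 over arrays left out, and Pgr and Prl without the 8-week arrays (0.016 and 0.019). The cause was not tested.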

Other observations

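Probes with runs of 4 of 5 other short repeats had pooled changes of one sign within each set, the sets being chosen after their values were seen. Of all probes, 19.6% were lower and 8.79% higher at all 3 times. Probes that share a repeat may not be separate measurements, and their correlation was not computed for these sets. All 11 probes with a run of AGG were lower at all 3 times, with a median change of -0.34, and all 5 with a run of AG were lower at all 3 times, with a median of -0.25. The 36 probes with a run of GT were all lower in the pooled value, with a median of -0.11, but 0 were lower at all 3 times. The 11 probes with a run of AC were all higher, with a median of 0.18, of which 1 was higher at all 3 times. Of the 5 probes with a run of GTT, 1 was lower and 4 were higher, with a median of 0.0072.

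Dim probes carried most of the lower calls. In the second decile of mean level 14 probes were higher and 187 lower past the thresholds, and without 8-week sham A these were 104 and 79. In the ninth decile they were 3 and 6, and 9 and 16 without that array, and in the brightest decile 4 and 25, and 11 and 26 without it.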
